A study of Mus musculus with 12 samples.

Results

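The genes described here encode the core subunits of Mediator and of RNA polymerase II (Pol II), 38 genes in all, of which 26 encode Mediator and 12 encode Pol II. They were chosen by name from lists of the subunits of both complexes, not by their values, though earlier results of these data were known. Each of the 38 was found among the 23042 genes listed for each tissue. The kinase module of Mediator, to which MED13 belongs, was left out. Expression was measured by RNA deep sequencing in both ventricles of the heart and in epididymal white adipose tissue (EWAT) of MED13cTg mice, which carry a transgene that raises MED13 in the heart, and of wild-type (WT) mice. There were 3 libraries per genotype and tissue, 12 in all. The mice were male C57BL/6 littermates, labelled as 6 weeks old, fed normal chow with free access to it and sampled late in the afternoon, and both genotypes shared these conditions. The promoter that drives the transgene and the number of founder lines are not given in the sources used here. Genotypes were compared within each tissue, to see whether the core to which MED13 docks was expressed at another level in mice with raised cardiac MED13.

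Mediator carries signals from DNA-bound transcription factors to Pol II. Its head and middle modules contact the polymerase, its tail holds most of the surfaces bound by transcription factors, and Med14 is the backbone that runs through them. The kinase module binds the core reversibly, with MED13 as the link, and while it is bound the core is kept from holding the polymerase. Pol II is built around Polr2a, the catalytic subunit whose long repeated tail is phosphorylated during transcription, and Polr2b, the second-largest subunit. Polr2e, Polr2f, Polr2h, Polr2k and Polr2l are small subunits that polymerases I and III also use.

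Values are FPKM as deposited by the authors, fragments scaled to the length of the transcript and to the mapped fragments of the library, so levels of different genes can be compared per length. Absolute depth is unknown from FPKM. Relative to WT replicate 1 of the same tissue, the number of fragments read from the lowest values was 0.901 to 1.02 in ventricles and 0.664 to 0.927 in EWAT, where MED13cTg replicate 1 had 0.664 and replicate 2 had 0.753. The comparison of genotypes used limma on log2(FPKM + 1), a scale that understates the changes of low genes, over all genes whose mean reached 1 FPKM, with Benjamini-Hochberg adjustment over all genes tested and a threshold of 0.05. All 38 members passed the expression filter in both tissues. The labels do not say whether the mice of a number were shared between tissues. Each p sets the difference between genotypes against the spread between these libraries, pooled over both genotypes. That spread is moderated toward its trend with mean level over all genes tested.

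The transgene was read first. In ventricles Med13 was at 13.1, 10.6 and 11.5 FPKM in WT against 263, 181 and 204.5 FPKM in MED13cTg libraries, an 18.4-fold ratio of means (log2 fold change 4.08, SE 0.165, limma adjusted p = 0.0002805). In EWAT Med13 was at 10.9, 9.43 and 9.99 FPKM in WT against 7.84, 11.03 and 10.7 FPKM in MED13cTg, and the genotypes overlapped.

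Libraries 1 and 2 of MED13cTg EWAT stood apart from the rest. Across the genes tested, rank correlations of MED13cTg replicate 1 with the other 5 EWAT libraries were 0.350 to 0.494 and those of replicate 2 were 0.350 to 0.852, whereas WT libraries correlated at 0.958 to 0.972 among themselves. The summed level of 18 epididymis genes was 99270 to 125000 FPKM in WT against 16260, 298 and 101000 FPKM in MED13cTg replicates 1, 2 and 3. For 7 testis germ cell genes, whose defining members include the sperm protamine Prm1, the sum was 213 to 303 FPKM in WT against 13640, 5.83 and 344 FPKM in MED13cTg. For 13 adipocyte genes it was 13820 to 32930 FPKM in WT against 1558, 82430 and 17850 FPKM in MED13cTg. None of the 3 lists had a gene at 0 in every library. EWAT counts, medians and the members with the largest fold changes are therefore also given without these libraries. In bulk tissue, fewer cells of a type and less RNA per cell cannot be told apart. The ventricle libraries held 55290 to 84040 FPKM of 8 cardiomyocyte genes, and 5 atrial genes summed to 447 to 743 FPKM in WT against 996 to 2443 FPKM in MED13cTg. Of the 4 atrial genes tested, 4 were higher in the mean. Only 1 had every MED13cTg library above WT, an order found in 3.46% of all genes. The atrial list includes Nppa, whose expression the paper reports as increased in MED13cTg ventricles, so its sum does not mark atrial cells alone. The part of these sums in the results was not tested.

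In ventricles, 0 of 38 subunit genes differed between genotypes, with adjusted p values of 0.9664 to 0.9945 (limma, Benjamini-Hochberg adjustment). The same test called 7 of 12589 genes, 0.0556% of those tested. Before adjustment, no member had p under 0.05, where 1.69% of all genes did so as higher and 3.03% as lower genes. With limma's array weights 6 members did (Med9, Med11, Med18, Med31, Polr2b and Polr2l), beside 27.8% of all genes. No member had its 3 MED13cTg libraries all above or all below its 3 WT libraries, an order found upward in 3.46% and downward in 5.85% of all genes. Log2 fold changes ran from -0.19 for Polr2b to 0.27 for Med18. The median was 0.016 over Mediator and 0.044 over Pol II members, beside -0.014 over all genes tested. The 95% interval of the fold change lay within 2-fold for 38 of 38 members and within 1.5-fold for 33, compared with 92.4% and 66.9% of all genes. A p that misses the threshold does not show that levels were equal, and the intervals bound the sizes of change that 6 libraries can exclude.

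**Figure D1:**
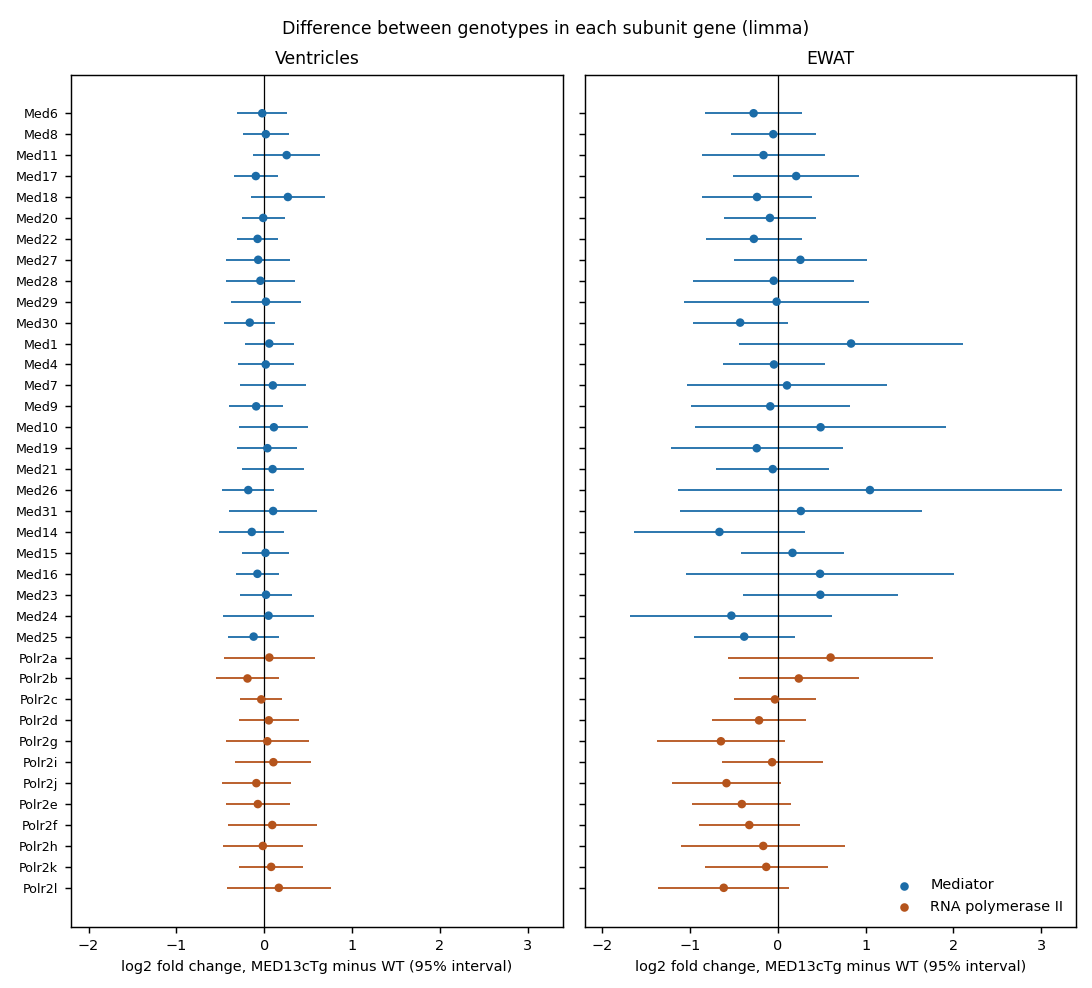
Log2 fold change of each subunit gene between MED13cTg and WT (points, limma) with its 95% interval (lines), in ventricles on the left and EWAT on the right, with Mediator in blue and Pol II in orange. The ventricle points lie between -0.19 and 0.27, the EWAT points between -0.67 and 1.05, and every interval includes 0.

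The Mediator head, which meets the polymerase and the general factors, had 7 members with log2 fold changes of -0.095 to 0.27 in ventricles. Med17, its scaffold, was at 6.41, 6.57 and 6.42 FPKM in WT against 5.29, 6.34 and 6.41 FPKM in MED13cTg, a log2 fold change of -0.095 (SE 0.105). MED13cTg replicate 1 was the lowest library, replicate 2 lay just under the WT range and replicate 3 within it. Med18, a head subunit at the lowest level of all members in this tissue, was at 2.22, 1.21 and 1.43 FPKM in WT against 2.50, 1.85 and 2.05 FPKM in MED13cTg, and its log2 fold change of 0.27 (SE 0.178) was the highest of the 38. WT replicate 1 lay within the MED13cTg range. For Med11, the head partner of Med22, the WT values were 11.2, 7.81 and 9.83 FPKM and the MED13cTg values 11.9, 13.2 and 9.81 FPKM, so that the highest libraries were MED13cTg replicates 1 and 2 and the genotypes overlapped. Med6, Med8, Med20 and Med22 had log2 fold changes of -0.075 to 0.019. Med22 shares its entry with Surf4, a cargo receptor of the secretory pathway, and its values are uncertain.

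Med14, the backbone, was at 7.55, 9.38 and 9.28 FPKM in WT ventricles against 8.57, 6.20 and 8.87 FPKM in MED13cTg ventricles (log2 fold change -0.14, SE 0.156). The lowest library was MED13cTg replicate 2 and the next lowest WT replicate 1, and the groups overlapped. Between head and tail, Med30, a subunit found in animals but not in budding yeast, was at 24.7, 21.4 and 23.2 FPKM in WT against 22.3, 21.6 and 17.8 FPKM in MED13cTg. Its log2 fold change of -0.16 (SE 0.121) rested mostly on MED13cTg replicate 3. Med27, Med28 and Med29 had log2 fold changes of -0.068 to 0.02.

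In the middle module, Med1, which nuclear receptors bind, was at 19.2, 14.9 and 16.1 FPKM in WT against 17.6, 17.2 and 17.2 FPKM in MED13cTg, with the MED13cTg values inside the WT range (log2 fold change 0.058, SE 0.116). Med26, which recruits elongation factors to the polymerase, was at 5.44, 6.35 and 4.78 FPKM in WT against 5.05, 4.34 and 4.82 FPKM in MED13cTg. The MED13cTg libraries were toward the low end, with a log2 fold change of -0.18 (SE 0.124), and WT replicate 3 lay among them. Med10, a small middle subunit, ranged from 19.8 to 24.4 FPKM in WT and from 20.6 to 29.8 FPKM in MED13cTg, where replicate 2 alone was above the WT range. Med4, Med7, Med9, Med19, Med21 and Med31 had log2 fold changes of -0.091 to 0.10.

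Among tail subunits, Med15, which binds the lipid regulators of the SREBP family, was at 21.6, 17.6 and 17.7 FPKM in WT against 18.9, 19.0 and 19.4 FPKM in MED13cTg ventricles. All 3 MED13cTg values lay between WT replicates (log2 fold change 0.015, SE 0.112). Med23, which is bound by Elk1, was at 8.14, 7.14 and 6.31 FPKM in WT against 6.92, 6.78 and 8.21 FPKM in MED13cTg, again with overlap. Med25, the target of the viral activator VP16, shares its entry with Ptov1, and that joint entry was at 151, 136 and 125 FPKM in WT against 117, 130 and 131 FPKM in MED13cTg. Med16 and Med24 had log2 fold changes of -0.077 and 0.05.

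For Pol II in ventricles, Polr2a (chr11:69547758-69571725 in mm9, the build of the deposited loci) was at 9.02, 13.3 and 13.1 FPKM in WT against 11.2, 9.83 and 16.2 FPKM in MED13cTg. The highest and the second-lowest library were both MED13cTg, and the log2 fold change of 0.059 had an SE of 0.217. Polr2b was at 16.2, 21.2 and 21.5 FPKM in WT against 15.3, 16.2 and 19.7 FPKM in MED13cTg, the lowest fold change of the 38 at -0.19 (SE 0.153). Its entry spans 2.51 times the length of its RefSeq gene, so fragments of a neighbour may be counted in it. WT replicate 1 lay within the MED13cTg values. The 10 smaller subunits had log2 fold changes of -0.089 to 0.17. Polr2f, a shared subunit and the highest Pol II member here, was at 187, 133 and 131 FPKM in WT against 144, 202 and 136 FPKM in MED13cTg. Polr2l, a small shared subunit, was at 66.8, 39.3 and 43.6 FPKM in WT against 56.2, 68.5 and 42.3 FPKM in MED13cTg. Polr2i, a subunit at the polymerase jaw that acts in start-site choice and proofreading, was at 94.0, 68.4 and 82.8 FPKM in WT against 82.5, 107 and 75.1 FPKM in MED13cTg. In Polr2f and Polr2l the same libraries, WT replicate 1 and MED13cTg replicate 2, were the highest of their genotypes, and in Polr2i as well.

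These 2 libraries were high for most members. WT replicate 1 was the highest WT library for 29 of 38 members, compared with 49.4% of all genes, and MED13cTg replicate 2 was the highest of its genotype for 23, compared with 41.9%. MED13cTg replicate 3 was the lowest of its genotype for 22 members, also beside 41.9% of all genes. In some libraries the deviations went with transcript length. Spearman's correlation between the length of the longest coding transcript and a member's deviation from the mean of the 6 libraries was -0.688 over the 38 members in MED13cTg replicate 2, 0.536 in MED13cTg replicate 3 and 0.477 in WT replicate 2. It was weaker in WT replicate 1 (-0.2), WT replicate 3 (0.225) and MED13cTg replicate 1 (-0.074). Over 10724 genes with a length, the same 6 correlations were -0.374, 0.354, 0.3001, -0.335, 0.209 and -0.013. Values of a library share that library, so these are descriptions without a test. The short transcripts of Polr2f, Polr2g and Polr2k were high and the long ones of Polr2a and Med14 low in MED13cTg replicate 2. A cluster of libraries (WT 1 with MED13cTg 1 and 2, the others together) was also used as a covariate. The labels do not give this cluster. It follows rank correlations of these same libraries, such as 0.965 for WT 1 with MED13cTg 2 and 0.969 for WT 2 with MED13cTg 3. With it, 0 members were called, and 7 had a fold change above 0 and 31 below, beside 21 and 17 without it. The median of all genes moved from -0.014 to -0.029.

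**Figure D2:**
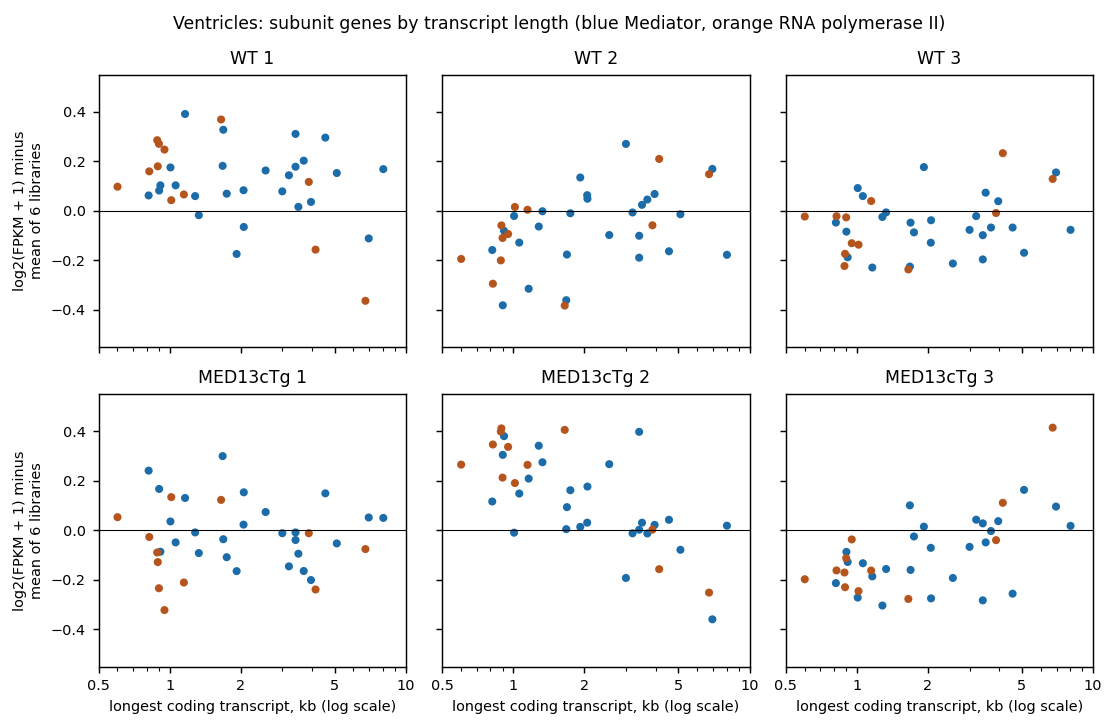
Deviation of each subunit gene from its mean over the 6 ventricle libraries, in log2(FPKM + 1), against the length of its longest coding transcript in kilobases (log axis), with 1 panel per library, Mediator in blue and Pol II in orange. Points fall with length in MED13cTg replicate 2 (Spearman's correlation -0.688) and rise with it in MED13cTg replicate 3 (0.536).

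In EWAT, too, 0 of 38 subunit genes differed between genotypes at the threshold, with adjusted p values of 0.7378 to 0.9903 (limma, Benjamini-Hochberg adjustment), but the individual libraries were far apart. The test called 2 of 14967 genes, 0.0134%, and with the replicate number as a block it called 0 genes and 0 members, with members' adjusted p of 0.7512 to 0.9907. No member had an unadjusted p under 0.05, beside 0.14% of all genes as higher and 1.11% as lower genes. Without MED13cTg replicate 3, the library nearest to WT, 6 members did (Med1, Med14, Med30, Polr2e, Polr2g and Polr2j), beside 16.4% of all genes. Log2 fold changes ran from -0.67 for Med14 to 1.05 for Med26, with a median of -0.049 over Mediator, -0.19 over Pol II and 0.012 over all genes tested. The fold change was above 0 for 12 members and below 0 for 26. With libraries scaled by median of ratios, the median over all genes was 0.095, and 21 were above 0 and 17 below, with medians of 0.045 for Mediator and -0.096 for Pol II. The 95% interval lay within 2-fold for 21 of 38 members and within 1.5-fold for 2, beside 23.9% and 2.89% of all genes.

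Every MED13cTg EWAT library lay below every WT library in 8 of 38 members, 21.1%, an order found in 7.8% of all genes. They were Med6, Med18, Med25 and Med30 of Mediator and Polr2e, Polr2g, Polr2j and Polr2l of Pol II. Med25 shares its entry with Ptov1, and the entries of Polr2e and Polr2l span 5.53 and 20.6 times their RefSeq genes. The count therefore includes entries that may hold fragments of other genes. The opposite order was found for Med23 alone, 2.63% of the members and 4.88% of all genes. Under median-of-ratios scaling the lower order held in 5 members, beside 5.32% of all genes, and under quantile normalization in 4, beside 4.66%. Without MED13cTg replicate 1 it was found in 18 members, beside 12.3% of all genes.

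**Figure D3:**
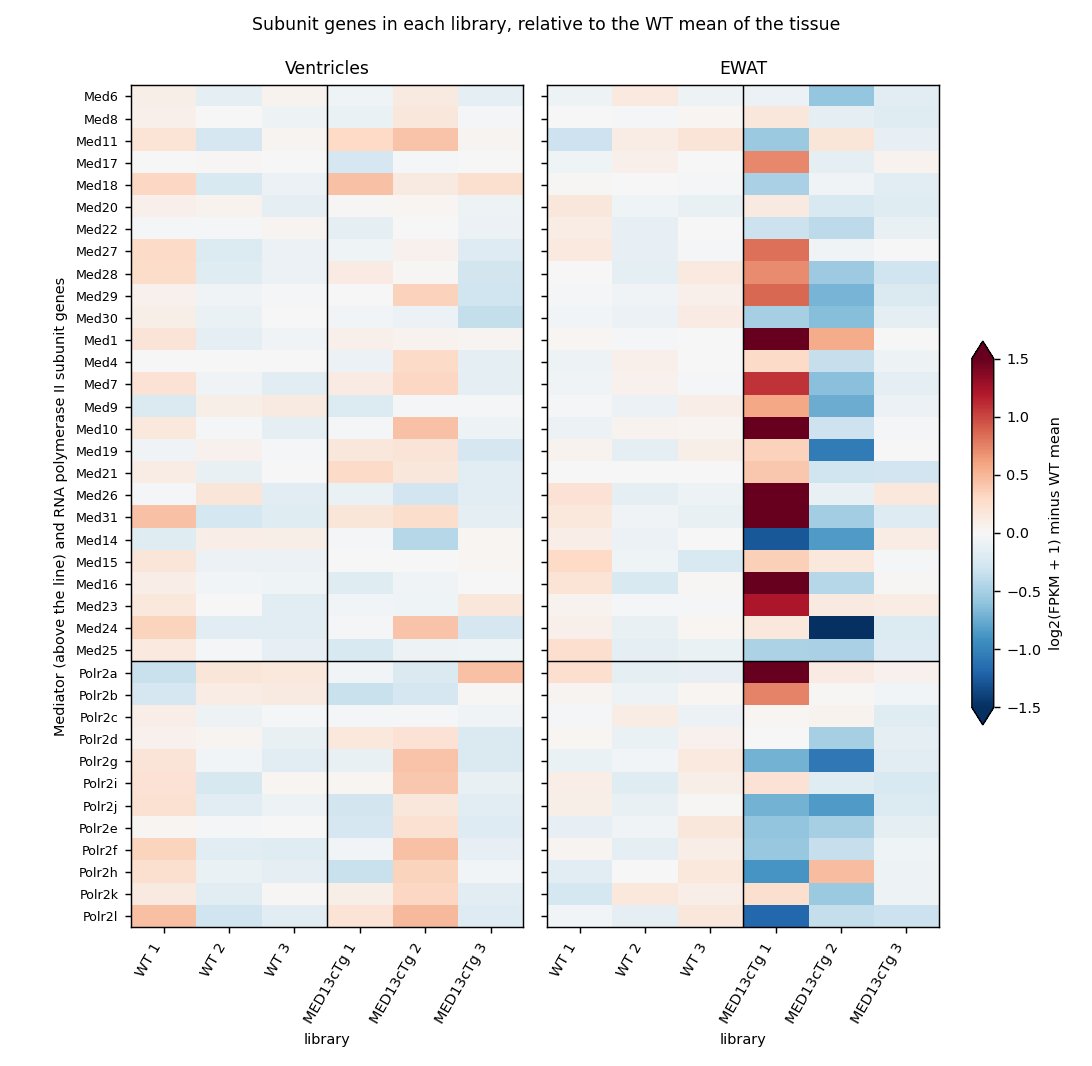
Level of each of the 38 subunit genes in each of the 12 libraries, as log2(FPKM + 1) minus the WT mean of the tissue (color, red above and blue below, with values beyond 1.5 at the end color). Ventricle libraries deviate by at most 0.489, whereas in EWAT MED13cTg replicate 1 holds values from -1.27 to 3.10 and MED13cTg replicate 3 stays between -0.32 and 0.16.

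The Pol II members with the lowest fold changes in EWAT were small subunits. Polr2g (chr19:8867619-8873047), which forms the stalk of the polymerase with Polr2d, was at 131, 137 and 155 FPKM in WT against 85.8, 66.6 and 125 FPKM in MED13cTg (log2 fold change -0.65, SE 0.296, limma adjusted p = 0.7378). Polr2j (chr5:136592561-136598817), an assembly subunit that pairs with Polr2c, was at 120, 105 and 115 FPKM in WT against 69.0, 62.4 and 98.2 FPKM in MED13cTg (log2 fold change -0.59, SE 0.252). For Polr2l the values were 52.9, 49.4 and 61.1 FPKM in WT against 23.5, 42.3 and 43.3 FPKM in MED13cTg (log2 fold change -0.62, SE 0.301). In each of these genes the lowest library was MED13cTg replicate 1 or 2, and MED13cTg replicate 3 was nearest to WT. The entry of Polr2l spans 20.6 times the length of its RefSeq gene, so fragments of a neighbour may be counted in it. Polr2e, the shared subunit next to the incoming DNA, was at 72.4, 76.6 and 89.6 FPKM in WT against 52.2, 55.7 and 71.8 FPKM in MED13cTg, without overlap and without passing the test (log2 fold change -0.41, SE 0.227). Its entry spans 5.53 times the length of its RefSeq gene, so the same limit holds for it. Polr2c, Polr2d, Polr2f, Polr2h, Polr2i and Polr2k had log2 fold changes of -0.33 to -0.033, with overlapping libraries.

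The large Pol II subunits, whose transcripts are the longest of Pol II, had the opposite sign. Transcript length was also set against each member's deviation from the mean of the 6 EWAT libraries. Spearman's correlation over the 38 members was -0.086, -0.43 and -0.446 in WT replicates 1 to 3. It was 0.354, 0.108 and -0.258 in MED13cTg replicates 1 to 3. Over 12417 genes the correlations, in that order, were -0.053, -0.163, -0.12, 0.011, 0.185 and 0.078. The part of length in these signs was not tested. Polr2a was at 13.7, 10.1 and 10.3 FPKM in WT EWAT against 36.8, 12.3 and 11.8 FPKM in MED13cTg EWAT (log2 fold change 0.60, SE 0.473, limma adjusted p = 0.7378). Polr2b was at 14.7, 13.4 and 14.6 FPKM in WT against 24.4, 14.4 and 13.8 FPKM in MED13cTg. MED13cTg replicate 1 alone stood above the WT range in both genes, and without it the log2 fold changes were 0.09 and -0.012. As a share of the summed FPKM of the 12 Pol II genes, a ratio that does not depend on how a library was scaled, Polr2a made up 1.78%, 1.38% and 1.24% in WT and 5.87%, 2.17% and 1.70% in MED13cTg. Polr2g made up 17.1%, 18.6% and 18.7% in WT and 13.7%, 11.7% and 18.0% in MED13cTg.

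Middle and tail subunits of Mediator held the highest fold changes, which rested on the same library. Med26 (chr8:75018458-75072209) was at 5.33, 3.94 and 4.19 FPKM in WT against 45.7, 4.04 and 5.10 FPKM in MED13cTg (log2 fold change 1.05, SE 0.883, limma adjusted p = 0.7378). Med1 (chr11:98013469-98054607) was at 9.11, 8.72 and 8.88 FPKM in WT against 37.2, 13.6 and 8.90 FPKM in MED13cTg (log2 fold change 0.83, SE 0.515). Med10 was at 43.2, 47.8 and 47.3 FPKM in WT against 162, 36.8 and 45.4 FPKM in MED13cTg (log2 fold change 0.49, SE 0.579). In all 3 genes MED13cTg replicate 1 was the highest of the 6 libraries, and Med1 was the only one of them in which replicate 2 was above WT as well. Without MED13cTg replicate 1 the log2 fold changes of Med26, Med1 and Med10 were 0.024, 0.28 and -0.17. That library also held the germ cell sum of 13640 FPKM, and the part of its make-up in these values was not tested. Med23 was at 6.69, 6.31 and 6.29 FPKM in WT against 16.2, 7.16 and 7.01 FPKM in MED13cTg, the one member with every MED13cTg library above WT (log2 fold change 0.48, SE 0.356). Med16 of the tail, where it sits beside Med23 and Med24, had a log2 fold change of 0.48 that was -0.21 without MED13cTg replicate 1. Med15 was at 27.7, 21.3 and 18.8 FPKM in WT against 28.9, 25.0 and 22.0 FPKM in MED13cTg, with overlap. The other middle subunits, Med4, Med7, Med9, Med19, Med21 and Med31, had log2 fold changes of -0.24 to 0.26.

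**Figure D4:**
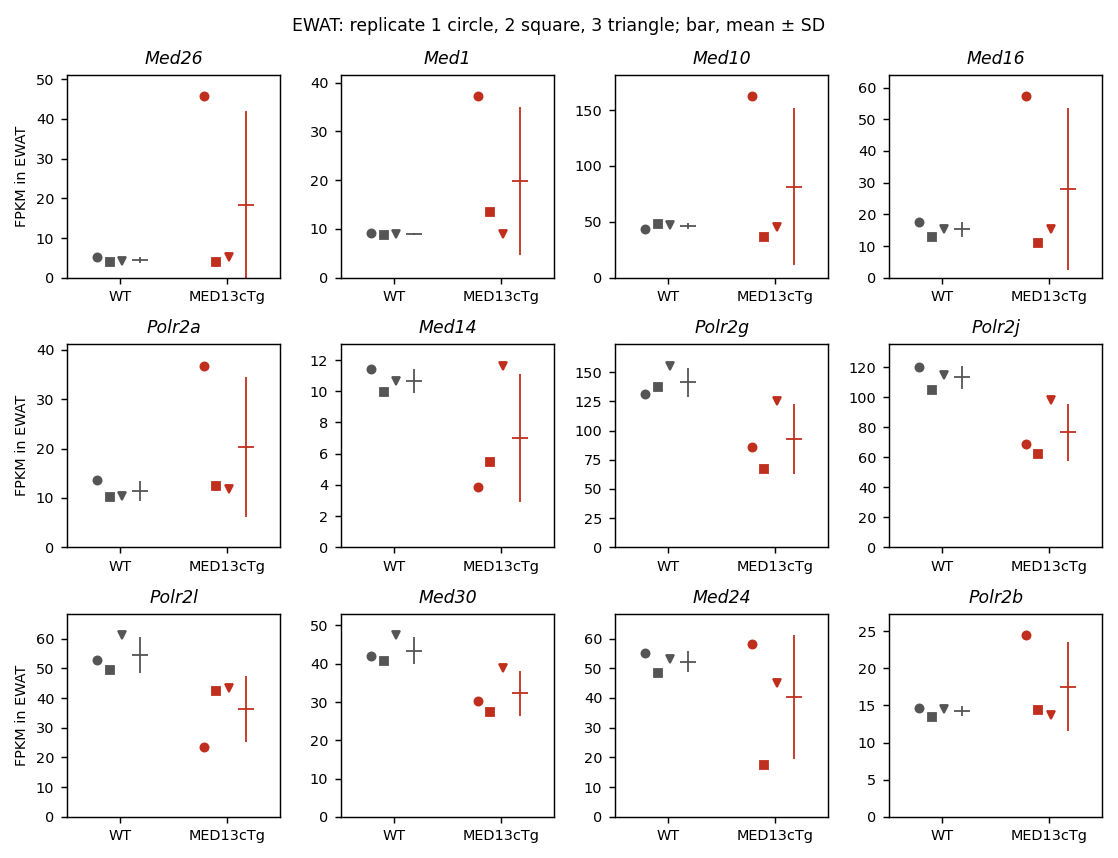
FPKM of 12 subunit genes in each EWAT library (circle, square and triangle for replicates 1, 2 and 3; horizontal mark and line, mean ± SD, n = 3, with the line of Med26 ended at 0). MED13cTg replicate 1 is high for Med26, Med1, Med10, Med16 and Polr2a, whereas MED13cTg replicates 1 and 2 are both low for Med14, Polr2g, Polr2j and Med30.

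Fold changes below 0 in Mediator were spread over the modules. Med14 (chrX:12252497-12339099) was at 11.4, 9.93 and 10.6 FPKM in WT against 3.84, 5.49 and 11.6 FPKM in MED13cTg (log2 fold change -0.67, SE 0.392, limma adjusted p = 0.7378). Replicates 1 and 2 of MED13cTg were low and replicate 3 was the highest of the 6 libraries, so without both low libraries the log2 fold change was 0.12. Med24, a tail subunit next to Med23, was at 55.2, 48.4 and 53.1 FPKM in WT against 58.3, 17.3 and 45.0 FPKM in MED13cTg, with the low value in replicate 2 alone. Without replicate 2 its log2 fold change moved from -0.53 to -0.025. Med30 was at 42.0, 40.8 and 47.4 FPKM in WT against 30.3, 27.5 and 38.9 FPKM in MED13cTg (log2 fold change -0.43, SE 0.219). In the head, Med17 was at 6.58, 7.38 and 6.88 FPKM in WT against 12.1, 6.22 and 7.21 FPKM in MED13cTg, and Med18, the lowest member in EWAT as in ventricles, was at 3.80, 3.77 and 3.64 FPKM in WT against 2.38, 3.57 and 3.21 FPKM in MED13cTg. The joint entry of Med22 and Surf4, the highest of the 38 in EWAT, was at 196, 167 and 182 FPKM in WT against 145, 138 and 168 FPKM in MED13cTg, with MED13cTg replicate 3 just above WT replicate 2. Med6, Med8, Med11 and Med20 had log2 fold changes of -0.28 to -0.052, that of Med25 was -0.38, and Med27, Med28 and Med29 lay between -0.047 and 0.26.

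The 3 MED13cTg EWAT libraries differed from one another. Relative to the WT mean, the median Mediator gene stood at 0.38 in MED13cTg replicate 1, -0.367 in replicate 2 and -0.115 in replicate 3 on the log2 scale. The median Pol II gene stood at -0.281, -0.347 and -0.143. Over all genes tested the medians were -0.097, -0.068 and -0.018. As a share of the summed FPKM of the 24 Mediator genes with an entry of their own, Med26 made up 1.05%, 0.802% and 0.820% in WT and 5.39%, 1.09% and 1.11% in MED13cTg, and Med14 made up 2.25%, 2.02% and 2.08% in WT and 0.452%, 1.48% and 2.53% in MED13cTg. The coefficient of variation of a member had a median of 8.26% in WT EWAT and 31.5% in MED13cTg EWAT, up to 130% for Med26, beside 12.1% and 60.1% for all genes. In ventricles it was 12.4% and 15.5%.

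Without MED13cTg replicates 1 and 2, EWAT had a single MED13cTg library, whose spread the test assumes to be like that of WT. Apart from Med14, whose sign turned, the low members moved toward 0, with log2 fold changes of -0.17 for Polr2g, -0.20 for Polr2j, -0.14 for Polr2e, -0.32 for Polr2l, -0.15 for Med30 and -0.21 for Med24. Those of Polr2a and Med23 were 0.062 and 0.11, and those of Med1 and Med10 were -0.001 and -0.019. In this library 20 of 38 members were below every WT library and 2 were above, beside 23.3% and 20.9% of all genes. The differences were small, with log2 fold changes of -0.32 (Polr2l) to 0.16 (Med26) and medians of -0.115 for Mediator and -0.143 for Pol II, beside -0.018 for all genes. No member was called, adjusted p was 1.0 for each (limma, Benjamini-Hochberg adjustment), and only Med21 had an unadjusted p under 0.05. The epididymis, germ cell and adipocyte sums of that library were 101000, 344 and 17850 FPKM, of which only the germ cell sum was outside the WT range.

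For 31 of the 38 members a promoter was found in the RefSeq table for GRCm38.p6 (36 promoters). The 120 bases before the transcription start are shown for 3 members that were low in every MED13cTg EWAT library. They are also shown for 3 that were high in MED13cTg replicate 1. None of these members was called, and the limits given above for the entries of Polr2l and Polr2e hold here too. The sequences are shown as a description only. Capitals mark matches, on either strand, to the GC box GGGCGG, the CCAAT box CCAAT, the ETS core CCGGAAG, the NRF1 core TGCGCA and the TATA box TATAAA. The first 3 belong to Polr2l (chr7:141475154-141475273, minus strand), Polr2j (chr5:136116571-136116690, plus strand) and Polr2e (chr10:80039660-80039779, minus strand), and the others to Med26 (chr8:72548311-72548430, minus strand), Med1 (chr11:98192907-98193026, minus strand) and Polr2a (chr11:69758634-69758753, minus strand).
Polr2l: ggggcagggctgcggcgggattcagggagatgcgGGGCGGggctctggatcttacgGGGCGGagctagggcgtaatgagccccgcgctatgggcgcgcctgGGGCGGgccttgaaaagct
Polr2j: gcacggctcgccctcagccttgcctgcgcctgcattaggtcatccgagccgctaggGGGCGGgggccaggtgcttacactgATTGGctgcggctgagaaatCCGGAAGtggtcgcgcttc
Polr2e: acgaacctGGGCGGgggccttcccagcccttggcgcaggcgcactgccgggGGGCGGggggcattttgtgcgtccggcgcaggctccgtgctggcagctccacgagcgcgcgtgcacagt
Med26: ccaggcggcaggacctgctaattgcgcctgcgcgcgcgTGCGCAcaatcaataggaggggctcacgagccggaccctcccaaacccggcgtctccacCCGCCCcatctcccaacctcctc
Med1: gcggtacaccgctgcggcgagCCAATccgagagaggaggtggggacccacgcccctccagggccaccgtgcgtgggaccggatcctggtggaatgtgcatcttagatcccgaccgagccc
Polr2a: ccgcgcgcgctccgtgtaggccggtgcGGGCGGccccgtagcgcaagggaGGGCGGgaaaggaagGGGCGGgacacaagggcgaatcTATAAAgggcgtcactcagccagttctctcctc

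GC boxes were seen on both sides, in Polr2l, Polr2j and Polr2e as well as in Med26 and Polr2a. Polr2a had a TATA box and 3 GC boxes in this window. Within 250 bases before the start, 20 of 31 members (64.5%) had a GC box, compared with 35.4% of all genes in the table. Those 27025 genes were not filtered by expression, whereas every member passed the expression filter. The shares here therefore compare unlike sets. An ETS core was present in 25.8% of members and 7.83% of all genes, and the NRF1 core in 29.0% and 7.36%. For the CCAAT box the shares were 41.9% and 37.5%, and for the TATA box 16.1% and 14.3%. Members had a median GC content of 55.6% and 14 CpG pairs per promoter, beside 52.4% and 6 for all promoters. Matches may share letters with a neighbouring motif, and a match is a description of the letters only.

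In WT mice the order of the members was much alike in the tissues. Tables were estimated separately for each tissue, so levels are set side by side without a test. The WT EWAT libraries held 99270 to 125000 FPKM of the 18 epididymis genes, beside 13820 to 32930 FPKM of the 13 adipocyte genes. EWAT levels and ratios are therefore those of the tissue as sampled, not of fat cells alone, and the part of epididymis RNA in them was not tested. The median Mediator gene with an entry of its own was at 13.5 FPKM in ventricles (1.62 to 62.9) and 18.4 FPKM in EWAT (3.74 to 52.2), and the median Pol II gene at 52.1 FPKM (11.8 to 150) and 48.6 FPKM (11.4 to 141). The rank correlation of the WT means over the 38 genes was 0.904. In ventricles Med21, a middle subunit that forms a hinge with Med7, was the highest Mediator gene with an entry of its own at 62.9 ± 4.88 FPKM (SD, n = 3), and Polr2f the highest of Pol II at 150 ± 31.6 FPKM. In EWAT Med24, at 52.2 ± 3.51 FPKM, and Med21, at 51.8 ± 0.202 FPKM, led Mediator and were within their spread of each other, and Polr2g led Pol II at 141 ± 12.7 FPKM. Polr2a was the lowest Pol II gene in both, at 11.8 ± 2.41 and 11.4 ± 1.99 FPKM. The ratio of EWAT to ventricles was 2.52 for Med28 and 0.532 for Med1, the ends of the range in Mediator, and 1.80 for Polr2h and 0.591 for Polr2c, those in Pol II. The entry of Polr2c spans 2.78 times the length of its RefSeq gene, so fragments of a neighbour may be counted in it.

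**Figure D5:**
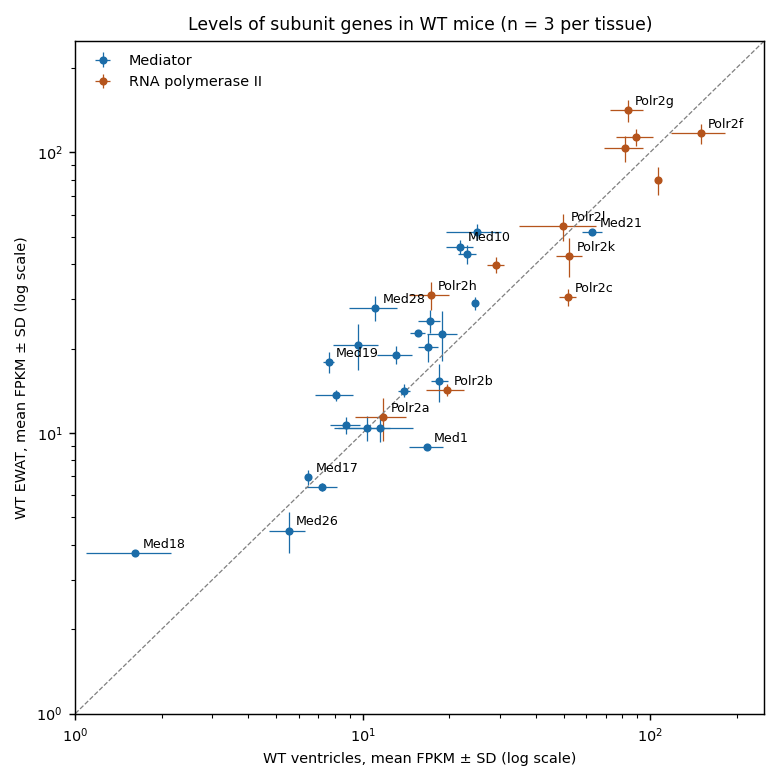
Mean FPKM ± SD (n = 3) of the 36 subunit genes with an entry of their own in WT ventricles (x axis) and WT EWAT (y axis), both on log scales, with Mediator in blue, Pol II in orange and a dashed line of equal values. Polr2e, Polr2f, Polr2g, Polr2i and Polr2j sit above every Mediator gene in both tissues, Polr2a and Polr2b lie within the Mediator range, and Med18 is the lowest gene in both.

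Other genes of the transcription machinery, from lists fixed by name, were also without a call. In ventricles 0 of 19 other subunits of polymerases I and III, 0 of 32 general transcription factors and 0 of 24 elongation factors passed the adjusted threshold (limma, Benjamini-Hochberg adjustment), with median log2 fold changes of 0.024, -0.025 and -0.061. Ell2, a subunit of the super elongation complex, was the only gene of these lists with an unadjusted p under 0.05, beside 4.73% of all genes. It was at 8.86, 7.39 and 7.90 FPKM in WT against 6.34, 5.17 and 6.41 FPKM in MED13cTg ventricles (log2 fold change -0.38, SE 0.12, limma unadjusted p = 0.01664, limma adjusted p = 0.9664). Every MED13cTg library of Ell2 lay below WT, an order found in 4.17% of the elongation factors. It was also found in 2 general transcription factors (6.25%), beside 5.85% of all genes. In EWAT the 3 lists had 0 calls and no gene with an unadjusted p under 0.05, beside 1.25% of all genes. Their medians were 0.028, 0.24 and 0.11.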

How the data were processed

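RNA was sequenced from ventricles and EWAT of WT and MED13cTg mice, with 3 libraries per genotype and tissue, from 1 µg of total RNA per the labels. The authors used TopHat for alignment to mm9 and Cufflinks for FPKM, both at default settings, and deposited 1 table per tissue (versions are not given in the sources used here). The authors' mean and fold columns were not used, nor was 1 unnamed column of values. Of the entries, 341 per tissue join symbols, 2 of them holding members, and 9 members have an entry over 1.5 times as long as their RefSeq gene. Those 9 are Med16, Med19, Med22, Med25, Med31, Polr2b, Polr2c, Polr2e and Polr2l, and fragments of neighbours may be counted in them. A gene with an entry of its own is a gene whose entry joins no other symbol.

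Each tissue was fitted on its own on log2(FPKM + 1), over genes whose mean reached 1 FPKM, using limma 3.58.1 under R 4.3.3 (lmFit, eBayes with a mean-variance trend, Benjamini-Hochberg adjustment, threshold 0.05, no covariate). A symbol on several rows was read from the row with the highest mean. The fit was also run on simulated libraries that all had the spread of the WT libraries. Such libraries do not cover the wider spread of MED13cTg EWAT, so they say nothing of how the fit performs there. Other values came from Python 3.11.15, pandas 2.3.3, numpy 2.4.6 and scipy 1.17.1, and plots from matplotlib 3.10.9. Relative depth came from ratios of values under 0.15 FPKM, and transcript lengths from GENCODE.

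Members and lists were chosen with earlier results of these data known. Named by rule were, per tissue, the 5 largest rises and falls among members, any member with unadjusted p under 0.05, Polr2a, Polr2b, Med1, Med14, Med15, Med17, Med23, and the highest and lowest member of each complex. Other members are named with a fold change or an order, chosen after their values were seen.

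Replicate numbers come from the labels. In EWAT the deviations of same-numbered libraries from their group means correlated at 0.347, 0.304 and 0.144 over genes. Those of different-numbered EWAT libraries ran from -0.417 to 0.168, so the ranges overlapped. In ventricles the same-numbered values were 0.085, -0.192 and 0.140. The labels do not state that a number marks a pair, so the main fits used no block and the block was an alternative only. Alternatives were another pseudocount, filter, scaling, variance trend or weighting, the replicate block, each library left out, both MED13cTg EWAT libraries 1 and 2 left out, the ventricle library cluster as a covariate, and summed rows.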

Additional observations from a re-analysis of the deposited data

How the results depend on the processing

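No subunit gene was called in either tissue under any alternative run. In ventricles the lowest adjusted p of a member was 0.1057 with array weights, and in EWAT 0.1591 without MED13cTg replicate 3 (limma, Benjamini-Hochberg adjustment). Members with an unadjusted p under 0.05 numbered 6 and 6 in these fits, beside 27.8% and 16.4% of all genes. They numbered 2 in ventricles with the library cluster (7.68%) and 1 without WT replicate 1 (11.7%), and in EWAT 2 with no filter (1.92%), 2 without MED13cTg replicate 1 (1.71%) and 1 without both MED13cTg libraries 1 and 2 (2.35%). Counts over all genes moved. Ventricles had 31 calls with no filter, 3 with a filter at 5 FPKM, 15 with array weights, 4 with the replicate block and 4 to 9 with a library left out (4 without MED13cTg replicate 1 or 2), beside 7. EWAT had 1 with no filter, 0 with array weights, whose estimate did not fully converge there, 0 with the replicate block, 1 to 5 with a library left out (5 without WT replicate 1 or 3, 1 without MED13cTg replicate 2 or 3) and 19 without both MED13cTg libraries 1 and 2, beside 2. Same-numbered ventricle libraries did not all deviate together, so the block there shares only a number.

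Members whose MED13cTg libraries all lay below WT numbered 2 in ventricles under quantile normalization, beside 4.33% of all genes, and 0 to 4 with a library left out, with 4 without WT replicate 1 or MED13cTg replicate 2 beside 18.7% and 12.4% of all genes. In EWAT they numbered 5 under median-of-ratios scaling (5.32% of all genes), 4 under quantile normalization (4.66%), 8 to 18 with a library left out (9.02% to 22.4%) and 20 without both MED13cTg libraries (23.3%). Those all above WT numbered 0 to 5 in ventricles and 1 to 4 in EWAT with a library left out, in both the most without WT replicate 1 (16.1% and 7.86% of all genes), and 2 without both (20.9%).

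Signs of several log2 fold changes turned. In ventricles Polr2a was at -0.14 with array weights, and with the library cluster Med15 was at -0.026, Polr2f at -0.045, Polr2i at -0.002 and Polr2l at -0.036. With a library left out, ventricle values ran from -0.13 to 0.20 for Polr2a, from -0.017 to 0.16 for Med1, from -0.032 to 0.11 for Med15, from -0.042 to 0.21 for Polr2i, from -0.059 to 0.10 for Med23, from -0.052 to 0.20 for Med10, from -0.23 to 0.003 for Med14 and from -0.084 to 0.26 for Polr2f. In EWAT they ran from -0.17 to 0.89 for Med10, from -0.044 to 0.38 for Med17 and from -0.012 to 0.38 for Polr2b. Without both MED13cTg libraries Med1 was at -0.001, Med10 at -0.019, Med14 at 0.12, Med15 at -0.018 and Polr2b at -0.044. The cause was not tested. With FPKM alone the depth of each library is unknown, and the wide EWAT intervals limit what can be detected there.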
